A study of Mus musculus with 8 samples.

Results

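The genes described here encode the translation initiation factors (eIF1 to eIF6) and elongation factors (eEF1 and eEF2) of the mouse, together with the proteins that share these names because they bind or modify them. They were chosen by symbol, as every protein-coding gene of the count table that begins with Eif and a digit from 1 to 6, or with Eef and 1 or 2, apart from the Eif2ak kinases. This gave 63 of the 48795 genes in the table, of which 21772 are protein coding. By role, 44 belong to initiation and 8 to elongation itself, and the others are 4 eIF4E binders, 5 enzymes that modify elongation factors, and Eif4a3 and Eef1e1, which carry a family name but are known mainly for work in the exon junction complex and in the aminoacyl-tRNA synthetase complex. Eef1a2 and Eif4e1b were at 0 counts in all 8 libraries. Eef1akmt3 (35 counts over the Sirt1-deleted libraries and 17 over the controls) and Eif4ebp3 (11 over the Sirt1-deleted libraries and 13 over the controls) fell short of the filter on low counts, so that 59 genes were tested.

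RNA came from LSK cells sorted from bone marrow, which lack lineage markers and carry Sca-1 and c-Kit, a fraction rich in blood stem and progenitor cells. The C57BL/6 mice had chronic myeloid leukaemia (CML), induced 10 weeks before the sort in both groups. Sirt1-deleted mice (cre+) gave 4 libraries and control mice (cre-) gave 4, described as biological replicates. SIRT1 is an NAD-dependent deacetylase, and the control mice carried the leukaemia without the deletion. The sources used here do not give the driver of Cre, the leukaemia transgene or the ages of the mice.

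Initiation begins when eIF2, loaded with GTP and initiator tRNA, joins eIF1, eIF1A, eIF3 and eIF5 on the small ribosomal subunit. Many eIF4 proteins, though not all that share the name, bring the capped messenger to that complex. The factor eIF2B recharges eIF2 with GTP, and eIF5B and eIF6 act on the joining of the large subunit. In elongation, eEF1A delivers aminoacyl-tRNA, the eEF1B subunits recharge eEF1A, eEF2 moves the ribosome along, and eIF5A, despite its name, helps ribosomes past difficult peptide bonds. The kinase eEF2K phosphorylates eEF2 and so slows it, and unphosphorylated 4E-BP proteins hold eIF4E away from eIF4G.

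Gene counts totalled 26496051, 34280925, 24648721 and 32252185 in Sirt1-deleted libraries 1 to 4, and 24549280, 28883834, 18252562 and 20814442 in controls 1 to 4. Sirt1 itself had 441, 391, 218 and 242 counts in Sirt1-deleted libraries 1 to 4, against 386, 498, 147 and 202 in controls 1 to 4, and was not called by edgeR (log2 fold change -0.26 ± 0.39 SE, with an adjusted p = 0.797). The table gives 1 sum per gene, in which a deletion of some exons need not show, so the labels are not checked by this value. All 9 LSK markers reported were detected in some library (Slamf1 was at 0 in controls 2 and 3), and their summed level ranged from 1160.02 to 1598 CPM (for markers, the counts of a gene set against the plain gene total of its library) in Sirt1-deleted and from 846 to 1522 CPM in control libraries. Kit, which encodes the c-Kit receptor of the sort, had 105 to 159 CPM in Sirt1-deleted and 32.6 to 43.5 CPM in control libraries. Ly6a, which encodes Sca-1, the other surface marker of the sort, had 131 to 223 CPM in Sirt1-deleted and 229 to 739 CPM in control libraries, so the 2 sort markers lay in opposite directions, each without overlap. Of the other LSK markers reported, Cd34 (410 to 651 CPM in Sirt1-deleted, 215 to 293 CPM in control libraries) was higher without overlap. Flt3 (286 to 386 CPM in Sirt1-deleted, 145 to 226 CPM in control libraries), Mecom, Procr and Hlf were too, while Slamf1 and Gata2 overlapped. Markers of other cells were present as well. The 5 mast cell and basophil markers summed to 259 to 947 CPM in Sirt1-deleted and 931 to 4977 CPM in control libraries. The 6 T and NK cell markers summed to 428 to 544 CPM in Sirt1-deleted and 549 to 654 CPM in control libraries. Most of that sum was Nkg7 (397 to 541 CPM in Sirt1-deleted, 497 to 590 CPM in control libraries), which overlapped. Cd3e was lower in Sirt1-deleted libraries without overlap, and Cd3g, Cd4, Cd8a and Klrb1c overlapped. Sirt1-deleted 2 had the highest Nkg7 of its group but 0.53 CPM of Cd3e. The 7 neutrophil markers summed to 1186 to 2310 CPM in Sirt1-deleted and 1692 to 4605 CPM in control libraries, and the 5 plasma cell markers to 269 to 4489 CPM in Sirt1-deleted and 418 to 1553 CPM in control libraries. The 4 erythroid markers summed to 3.65 to 51.03 CPM in Sirt1-deleted and 7.25 to 103 CPM in control libraries. These levels move with genotype or with single libraries, and their part in the values below was not tested. In bulk RNA, fewer cells of a type and less RNA per cell cannot be told apart.

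The translation factor genes as a whole sat slightly lower in Sirt1-deleted LSK cells, with eEF2 kinase, Eif4g3 and most other eIF4 genes on the higher side, and no single member passed the test. The median log2 fold change (Sirt1-deleted over control) was -0.23 over the 59 members, beside 0.062 over all 14178 genes tested, and 47 of the 59 (79.7%) were below 0, beside 46.1% of all genes. At an adjusted p under 0.05, the edgeR quasi-likelihood test called 0 of the 59 members, where 0.0846% of all genes tested (12 genes, 7 higher and 5 lower) were called. With upper-quartile scaling those called over all genes were 7 higher and 11 lower. At an unadjusted p under 0.05, 2 members were higher (3.39%, beside 7.55% of all genes) and 17 were lower (28.8%, beside 8.6% of all genes). Groups that did not overlap at all were seen for 2 members in the higher direction (3.39%, beside 6.64% of all genes) and for 8 in the lower direction (13.6%, beside 6.44%). DESeq2 called 11 members, 1 higher and 10 lower, where it called 3.76% of all genes higher and 4.39% lower. Limma-voom with quality weights called 15, 1 higher and 14 lower, where it called 2.61% and 5.42% of all genes. Without Sirt1-deleted 1, edgeR called 7 members, Eef2k in the higher direction and Eef1b2, Eef1d, Eif2s2, Eif4ebp1, Eif5a and Eif6 in the lower one, where 0.535% and 2.52% of all genes were called. Without control 2 as well, it called 4, all lower, where 0.521% of all genes were called higher and 1.61% lower.

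**Figure D1:**
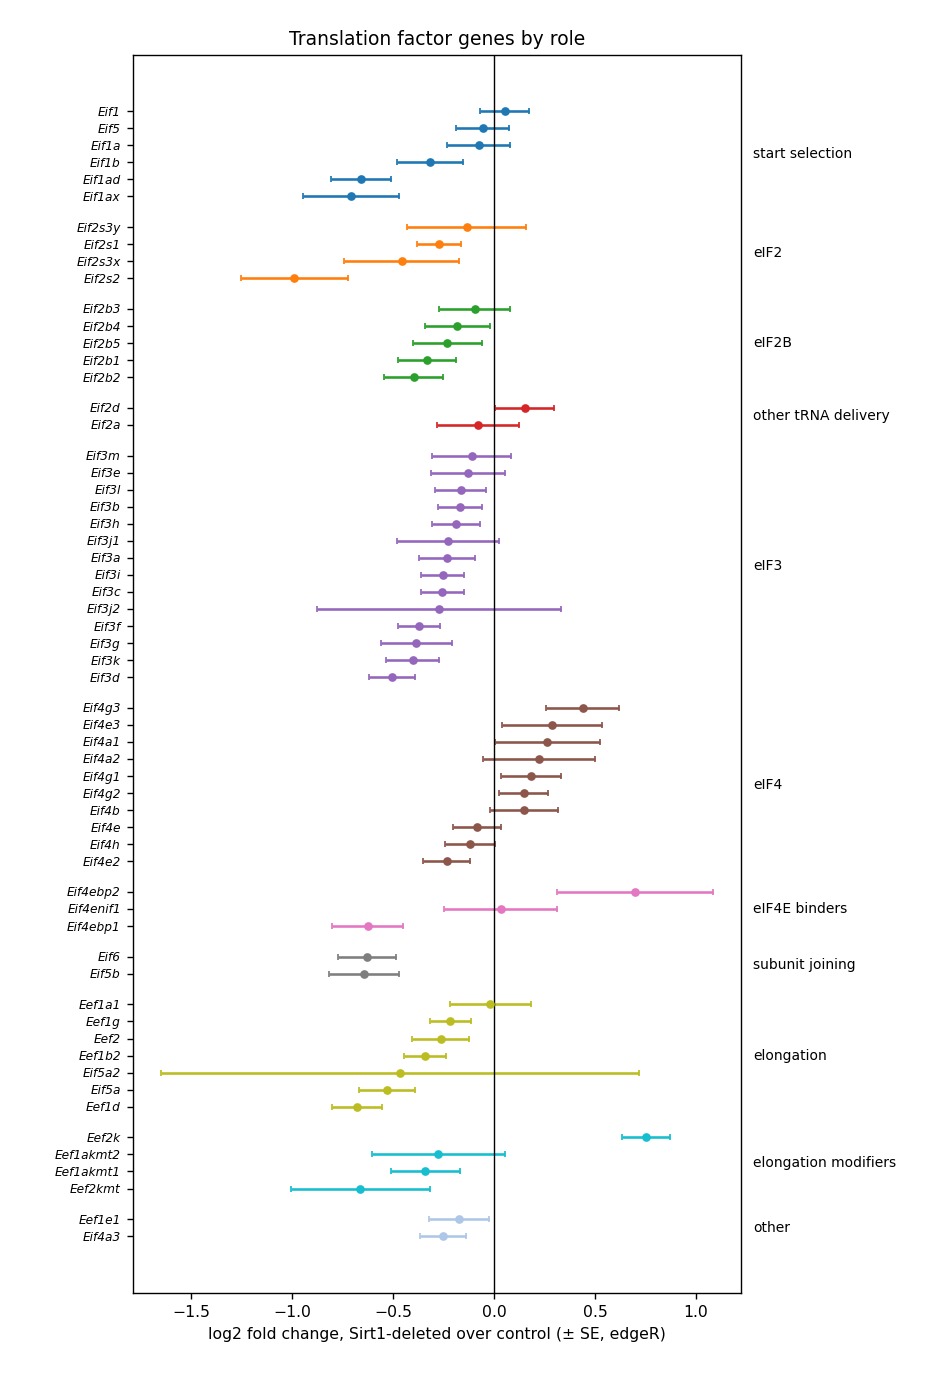
Log2 fold change of each of the 59 tested genes (x axis, Sirt1-deleted over control, ± SE from edgeR, n = 4 each), grouped by role down the page. All 14 eIF3 genes and all 7 elongation factor genes lie below 0, while 7 of 10 eIF4 genes and Eef2k lie above it.

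Initiation and elongation sat on the same side of zero. Over the 43 tested initiation genes the median was -0.19 on the log2 scale, with a range from -0.99 (Eif2s2) to 0.44 (Eif4g3), and 34 were negative. Over the 7 tested elongation factor genes it was -0.34, with a range from -0.68 (Eef1d) to -0.019 (Eef1a1), and all 7 were negative. Of all gene counts, initiation genes took 0.857, 0.956, 0.859 and 0.846% in Sirt1-deleted libraries 1 to 4, against 0.876, 1.016, 0.988 and 1.01% in controls 1 to 4. Elongation factor genes took 0.764, 0.887, 0.750 and 0.786% in Sirt1-deleted libraries 1 to 4, against 0.8294, 0.992, 1.01 and 0.9504% in controls 1 to 4. Both sets of shares overlap between the groups, in each case through Sirt1-deleted 2 and control 1. The ratio of elongation to initiation counts was 0.892, 0.927, 0.874 and 0.929 in Sirt1-deleted libraries 1 to 4, against 0.947, 0.977, 1.018 and 0.941 in controls 1 to 4. The 2 groups of ratios do not overlap, but this ratio was not tested. Immunoglobulin genes took 7.58, 0.867, 12.8 and 13.0% of the gene counts in Sirt1-deleted libraries 1 to 4, against 4.63, 1.70, 3.00 and 4.03% in controls 1 to 4, and they enter the denominator of the shares but not that of the ratio.

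Promoter sequences are shown for 4 genes: Eef2k, the member with the smallest edgeR p, Eef2, whose product that kinase phosphorylates and whose own groups overlap, and Eef1b2 of eEF1B and Eif3d of eIF3, whose groups do not overlap. They are RefSeq sequences of the build GRCm38.p6, running from 150 bases before to 20 bases after an annotated start, at chr7:120842681-120842850 (forward strand), chr10:81176481-81176650 (forward), chr1:63176681-63176850 (forward) and chr15:77970805-77970974 (reverse). Capitals mark a CACGTG E-box or a CCGGAAGT ETS motif on either strand. Each of the 4 stretches holds a motif, which is not general among members whose groups do not overlap. Eif1ad, Eif4g3 and Eif5b hold neither motif in such stretches, while Eif3f, and Eif5a at some of its starts, hold one. Eef1d and Eif6, whose groups do not overlap either, had no promoter sequence and were not examined.
Eef2k: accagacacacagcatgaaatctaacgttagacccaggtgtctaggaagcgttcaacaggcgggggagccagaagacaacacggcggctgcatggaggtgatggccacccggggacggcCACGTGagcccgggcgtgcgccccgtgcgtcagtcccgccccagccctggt
Eef2: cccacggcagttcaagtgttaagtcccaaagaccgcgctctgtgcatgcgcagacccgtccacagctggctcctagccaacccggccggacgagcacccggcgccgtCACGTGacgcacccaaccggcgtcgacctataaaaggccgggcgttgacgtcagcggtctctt
Eef1b2: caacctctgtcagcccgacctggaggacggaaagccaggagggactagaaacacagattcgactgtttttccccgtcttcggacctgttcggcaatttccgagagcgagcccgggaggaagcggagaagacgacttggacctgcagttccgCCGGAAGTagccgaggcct
Eif3d: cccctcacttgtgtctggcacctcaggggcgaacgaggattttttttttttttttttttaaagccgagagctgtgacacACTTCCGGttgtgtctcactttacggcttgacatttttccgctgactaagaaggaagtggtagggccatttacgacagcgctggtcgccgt
The E-box begins 31 bases before the start in Eef2k and 43 bases before it in Eef2. The ETS motif begins at the second transcribed base in Eef1b2 and 71 bases before the start in Eif3d, there on the other strand. Eef2k has 3 annotated starts, and the E-box stands at the first of them. Of the 63 members, 47 have a promoter in the table. Over the table's full promoter windows, which reach further upstream and downstream than the stretches printed, with any annotated start and both strands counted, 12 of the 47 (25.5%) held CACGTG, where 1510 of 16430 coding genes (9.19%) did. The motif CCGGAAGT was held by 8 (17.0%, beside 5.95% of coding genes). A C followed by at least 4 pyrimidines is the terminal oligopyrimidine form known for messengers of the translation machinery. It was found exactly at the annotated start of 2 members, Eif2s3x and Eif3f (4.26%, beside 2.73%). Only that base was examined, so a tract that begins some bases away is not counted. The printed stretch of Eef2, for example, ends in such a tract after its annotated start. A match describes letters in a window and does not show binding.

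eEF2 kinase had the smallest p of the members by edgeR with all 8 libraries and TMM scaling. Eef1d had the smaller p with upper-quartile scaling, with limma-voom and after removal of the trend over gene length and GC content, among other alternatives. Eef2k (chromosome 7, 120842831 to 120907450, forward strand, GRCm38) had 199.7, 207, 195 and 193 CPM in Sirt1-deleted libraries 1 to 4, against 109, 122, 101 and 139.6 CPM in controls 1 to 4. The Sirt1-deleted libraries lay within a narrow band, well above every control. The means were 199 ± 5.98 in Sirt1-deleted and 118 ± 16.7 in control libraries (SD, n = 4 each), and the log2 fold change was 0.75 ± 0.12 (SE, adjusted p = 0.0672). Its log2 fold change ranged from 0.53 to 0.85 over the alternatives, with the lowest value after a trend over gene length and GC content was removed. Eef2, the substrate of the kinase, had 2282, 1812, 1874 and 1989 CPM in Sirt1-deleted libraries 1 to 4, against 2285, 2683, 2737 and 1856 CPM in controls 1 to 4, and the groups overlap (log2 fold change -0.26 ± 0.14, adjusted p = 0.410).

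The other enzymes that modify elongation factors lay further from the threshold, with groups that overlap. Eef2kmt, the lysine methyltransferase of eEF2, had 26.1, 60.4, 64.0 and 63.0 CPM in Sirt1-deleted libraries 1 to 4, against 101, 117, 51.3 and 69.6 CPM in controls 1 to 4. Sirt1-deleted 1 is far below its group there (log2 fold change -0.66 ± 0.34, adjusted p = 0.392). Eef1akmt1 and Eef1akmt2, which methylate lysines of eEF1A, had log2 fold changes of -0.34 ± 0.17 and -0.28 ± 0.33 (adjusted p = 0.379 and 0.736).

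**Figure D2:**
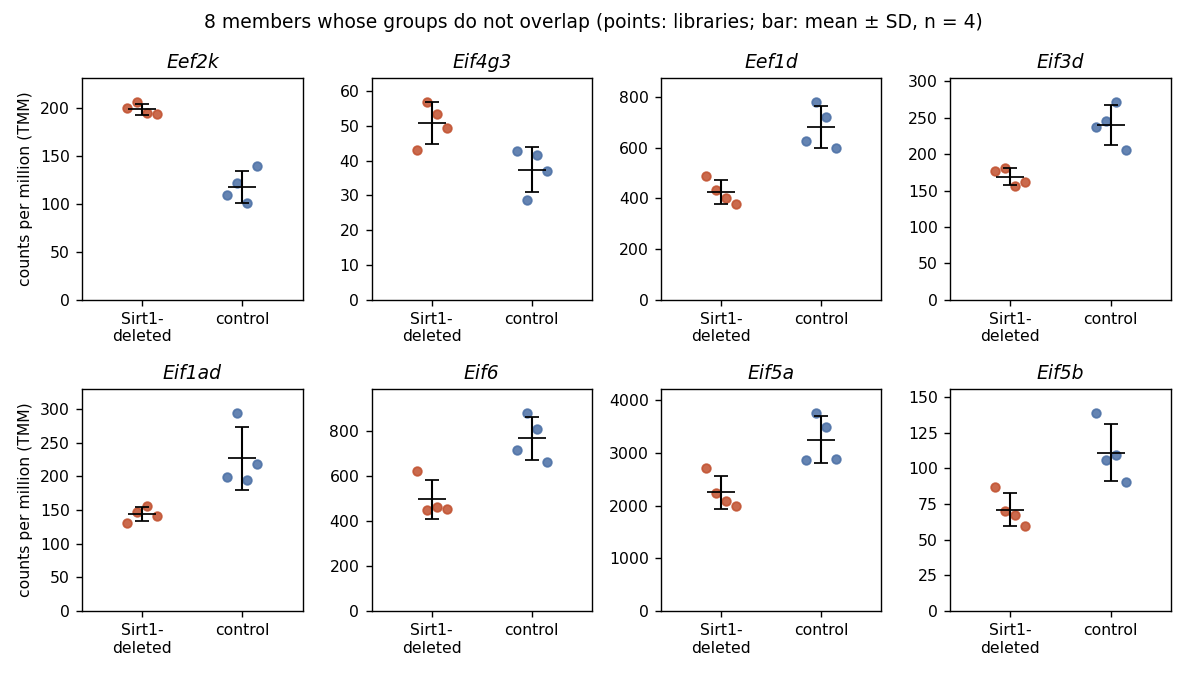
CPM (y axis, TMM-scaled, starting at 0) of 8 genes whose Sirt1-deleted and control libraries do not overlap, with a point per library and bars for the mean ± SD (n = 4 each). Eef2k and Eif4g3 are higher in every Sirt1-deleted library, and Eef1d, Eif3d, Eif1ad, Eif6, Eif5a and Eif5b are lower in every one.

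Among the elongation factors, Eef1d of the exchange complex eEF1B and Eif5a had the lowest log2 fold changes, and the eEF1A gene was nearest to zero. Eef1d, which encodes the delta subunit of eEF1B (chromosome 15, 75894205 to 75909556, reverse strand), had 488, 433, 399 and 379 CPM in Sirt1-deleted libraries 1 to 4, against 624, 781, 719 and 599 CPM in controls 1 to 4. Every Sirt1-deleted library was below every control, and the log2 fold change was -0.68 ± 0.12 (adjusted p = 0.0892). Eef1b2, the beta subunit that carries out nucleotide exchange (chromosome 1, 63176825 to 63180486, forward strand), had 388, 344, 314 and 325 CPM in Sirt1-deleted libraries 1 to 4, against 468, 429.8, 395 and 443 CPM in controls 1 to 4 (-0.34 ± 0.10, adjusted p = 0.165). The groups do not overlap there either. Eef1g, the gamma subunit, had 397 to 489 CPM in Sirt1-deleted and 475 to 570.3 CPM in control libraries (-0.22 ± 0.10, adjusted p = 0.348).

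Eif5a (chromosome 11, 69916714 to 69921958, reverse strand) had the most counts per exon length of the members in controls. Reads with more than one alignment were not counted, which may lower Eef1a1, the next in order. Eif5a had 2708, 2235, 2082 and 1989 CPM in Sirt1-deleted libraries 1 to 4, against 2874, 3763, 3491 and 2880.4 CPM in controls 1 to 4. Its highest Sirt1-deleted library stayed just below the lowest control (log2 fold change -0.53 ± 0.14, adjusted p = 0.136). Its relative Eif5a2 had 0, 99, 50 and 51 counts in Sirt1-deleted libraries 1 to 4, against 84, 46, 46 and 17 in controls 1 to 4 (-0.47 ± 1.19, adjusted p = 0.886), and the groups overlap widely. Eef1a1, the ubiquitous eEF1A gene, had 1561, 2736, 2401 and 2681 CPM in Sirt1-deleted libraries 1 to 4, against 2027, 2140.2, 2317 and 3020.4 CPM in controls 1 to 4. The Eef1a1 groups overlap as well, and the log2 fold change of -0.019 ± 0.20 (adjusted p = 0.975) lay between -0.13 and 0.12 over the alternatives.

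Genes grouped under start codon selection were split. The place of Eif1ad in this group rests on its name and domain, not on a role tested here. Eif1ad, whose product carries an eIF1A-like domain (chromosome 19, 5366741 to 5371526, forward strand), had 130.4, 147, 155 and 141 CPM in Sirt1-deleted libraries 1 to 4, against 198, 294, 195 and 219 CPM in controls 1 to 4. Its groups do not overlap (log2 fold change -0.66 ± 0.15, adjusted p = 0.106). Eif1ax, an eIF1A gene on the X chromosome, had 110.2, 91.7, 70.8 and 62.6 CPM in Sirt1-deleted libraries 1 to 4, against 129.8, 191, 118 and 109.5 CPM in controls 1 to 4 (-0.71 ± 0.24, adjusted p = 0.195), while Eif1a, its relative on chromosome 18, had a log2 fold change of -0.077 ± 0.16. Eif1, which guards the stringency of start codon choice, had 419.9, 471, 378 and 413 CPM in Sirt1-deleted libraries 1 to 4, against 407, 347, 394 and 475 CPM in controls 1 to 4. The groups overlap, and the log2 fold change was 0.052 ± 0.12 (adjusted p = 0.874). Eif5, which makes eIF2 hydrolyse its GTP at the start codon, had -0.056 ± 0.13 (adjusted p = 0.873), and Eif1b, a close relative of Eif1, had -0.32 ± 0.16 (adjusted p = 0.387). Over the 6 genes of this group, Eif1ad included, the median was -0.20, and 5 were negative.

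All 4 eIF2 genes and all 5 eIF2B genes had negative log2 fold changes, with medians of -0.37 and -0.23, and none had groups that stayed apart. Eif2s2, which encodes the beta subunit of eIF2, had the lowest value of any member, -0.99 ± 0.26 (adjusted p = 0.139). It had 122, 70.5, 60.5 and 60.0 CPM in Sirt1-deleted libraries 1 to 4, against 175, 176, 159 and 111 CPM in controls 1 to 4. Sirt1-deleted 1 reaches the control range and the other 3 Sirt1-deleted libraries lie below every control. Without Sirt1-deleted 1 the log2 fold change was -1.33, and edgeR called it. Eif2s1, the alpha subunit whose phosphorylation restrains initiation under stress, had 140.5, 130.0, 119 and 116 CPM in Sirt1-deleted libraries 1 to 4, against 158, 151, 138 and 162 CPM in controls 1 to 4 (-0.27 ± 0.11, adjusted p = 0.270).

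The gamma subunit of eIF2 has an X-linked and a Y-linked gene in the mouse. Eif2s3x had 8.77, 7.87, 6.77 and 7.04 CPM in Sirt1-deleted libraries 1 to 4, against 10.8, 11.2, 11.8 and 8.01 CPM in controls 1 to 4. Eif2s3y had 25.8, 20.3, 21.2 and 29.003 CPM in Sirt1-deleted libraries 1 to 4, against 34.2, 13.5, 28.2 and 29.9 CPM in controls 1 to 4. Neither separated the groups (log2 fold changes -0.46 ± 0.28 and -0.14 ± 0.30, adjusted p = 0.484 and 0.865). Eif2b5, the catalytic epsilon subunit of eIF2B, had 105, 159.7, 172 and 134 CPM in Sirt1-deleted libraries 1 to 4, against 141, 162, 176 and 192 CPM in controls 1 to 4 (-0.23 ± 0.17, adjusted p = 0.570). The other eIF2B subunits ran from -0.40 (Eif2b2, adjusted p = 0.233) to -0.096 (Eif2b3, adjusted p = 0.835). Eif2a and Eif2d, whose products can bring tRNA to the ribosome without eIF2, had -0.080 ± 0.20 and 0.15 ± 0.15 (adjusted p = 0.886 and 0.669).

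The 14 genes of eIF3, the largest initiation complex, which binds the small subunit, all had negative log2 fold changes, from -0.51 to -0.11 with a median of -0.24. At an unadjusted p under 0.05, 5 of the 14 were lower and 0 higher, and for 2 of the genes (14.3%) the groups did not overlap, both lower. Over all genes tested, 8.6% were lower and 7.55% higher at that p, and 6.44% were lower without overlap. Eif3d, the subunit known for binding the cap of selected messengers (chromosome 15, 77958998 to 77970813, reverse strand), had 177, 181, 157 and 162 CPM in Sirt1-deleted libraries 1 to 4, against 238, 245, 272 and 206 CPM in controls 1 to 4 (-0.51 ± 0.11, adjusted p = 0.102). Eif3f (chromosome 7, 108934417 to 108942951, forward strand) had 205, 245, 217 and 261 CPM in Sirt1-deleted libraries 1 to 4, against 281, 316, 295 and 308 CPM in controls 1 to 4 (-0.37 ± 0.11, adjusted p = 0.153). Both separate the groups. Eif3a, a core subunit on which the complex assembles, had 144, 192, 222 and 187 CPM in Sirt1-deleted libraries 1 to 4, against 231, 225, 197 and 222 CPM in controls 1 to 4, with overlap (-0.23 ± 0.14, adjusted p = 0.465). Among the other subunits, Eif3k had -0.40 ± 0.13 (adjusted p = 0.187) and Eif3m -0.11 ± 0.20 (adjusted p = 0.826). Eif3h turned to 0.018 and Eif3m to 0.14 when the trend over gene length and GC content was removed.

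Most of the eIF4 genes did not share the lower values, though Eif4e2, Eif4h (-0.12) and Eif4e (-0.085) were below 0. Of the 10 tested, 7 were above 0, with a median of 0.17 and a range from -0.23 (Eif4e2) to 0.44 (Eif4g3). The median came to zero when the trend over gene length and GC content was removed. Eif4g3, one of the eIF4G scaffolds (chromosome 4, 137993022 to 138208508, forward strand), had 43.0, 56.9, 53.4 and 49.5 CPM in Sirt1-deleted libraries 1 to 4, against 42.7, 28.6, 41.5 and 36.9 CPM in controls 1 to 4. The groups do not overlap, but only narrowly between Sirt1-deleted 1 and control 1, and the log2 fold change was 0.44 ± 0.18 (adjusted p = 0.277). Eif4g1, the main scaffold, had 180.3, 262, 268 and 216 CPM in Sirt1-deleted libraries 1 to 4, against 219.7, 225, 178 and 194 CPM in controls 1 to 4 (0.18 ± 0.15, adjusted p = 0.608). Those groups overlap.

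Eif4e, the cap-binding protein itself, had 95.0, 91.0, 88.8 and 85.8 CPM in Sirt1-deleted libraries 1 to 4, against 85.2, 107, 91.7 and 98.7 CPM in controls 1 to 4 (-0.085 ± 0.12, adjusted p = 0.779). The RNA helicase genes varied within the groups. Eif4a1 had 329.6, 571, 576 and 557 CPM in Sirt1-deleted libraries 1 to 4, against 419, 333, 313 and 629.6 CPM in controls 1 to 4. Sirt1-deleted 1 lies among the lower controls, and the other 3 of its group lie between 557 and 576 CPM (0.26 ± 0.26, adjusted p = 0.678). Eif4a2 had 27.1, 56.6, 26.7 and 33.5 CPM in Sirt1-deleted libraries 1 to 4, against 29.7, 38.5, 26.0 and 29.2 CPM in controls 1 to 4 (0.22 ± 0.28, adjusted p = 0.750). Its log2 fold change was -0.12 without Sirt1-deleted 2.

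The 4E-BP genes, which encode inhibitors of eIF4E, lay on opposite sides of zero. Eif4ebp1 had 238, 189.7, 158 and 163 CPM in Sirt1-deleted libraries 1 to 4, against 302, 342, 287 and 223 CPM in controls 1 to 4. Only Sirt1-deleted 1 reaches the control range (log2 fold change -0.63 ± 0.17, adjusted p = 0.146). Eif4ebp2 had 12.6, 34.5, 43.5 and 40.3 CPM in Sirt1-deleted libraries 1 to 4, against 13.6, 19.7, 19.99 and 27.2 CPM in controls 1 to 4. Here the other 3 Sirt1-deleted libraries stand above every control and Sirt1-deleted 1 is among the lowest (0.70 ± 0.39, adjusted p = 0.422). Eif4enif1, which encodes the eIF4E transporter 4E-T, had 0.034 ± 0.28 (adjusted p = 0.967).

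Both genes of subunit joining were lower in every Sirt1-deleted library than in every control, where 6.44% of all genes tested were lower without overlap. Eif6, which keeps the large subunit from joining too early (chromosome 2, 155819832 to 155826925, reverse strand), had 624, 449, 461 and 452 CPM in Sirt1-deleted libraries 1 to 4, against 715, 881, 811 and 664 CPM in controls 1 to 4 (-0.63 ± 0.14, adjusted p = 0.106). Eif5b, the GTPase that completes joining (chromosome 1, 37998010 to 38055579, forward strand), had 86.9, 70.2, 67.6 and 59.9 CPM in Sirt1-deleted libraries 1 to 4, against 139, 106, 109 and 90.2 CPM in controls 1 to 4 (-0.64 ± 0.17, adjusted p = 0.140). Eif4a3 and Eef1e1 had -0.26 ± 0.11 and -0.17 ± 0.15 (adjusted p = 0.316 and 0.621).

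Ratios within a library compare partners whatever the scaling. The log2 ratio of Eef2k over Eef2 was -3.51, -3.13, -3.27 and -3.36 in Sirt1-deleted libraries 1 to 4, against -4.39, -4.46, -4.75 and -3.73 in controls 1 to 4. All 4 Sirt1-deleted libraries lie above all 4 controls, and the mean difference was 1.02 (exact permutation p = 0.0286, adjusted p = 0.171), a ratio 2.02 times that of controls. This p, 0.0286, is the smallest that 70 assignments of 4 libraries against 4 can give, the tests are two-sided, and p-values were adjusted over the 6 pairs examined. The Eif4ebp1 over Eif4e ratio was 1.32, 1.06, 0.83 and 0.93 in Sirt1-deleted libraries 1 to 4, against 1.83, 1.68, 1.64 and 1.18 in controls 1 to 4, a difference of -0.55 (exact permutation p = 0.0571, adjusted p = 0.171). The Eif1b over Eif1 ratio differed by -0.36 (exact permutation p = 0.0857, adjusted p = 0.171) and the Eif4ebp2 over Eif4e ratio by 0.67 (exact permutation p = 0.200, adjusted p = 0.240). For Eif4g3 over Eif4g1 the difference was 0.28 (exact permutation p = 0.171, adjusted p = 0.240), and for Eif4a2 over Eif4a1 it was -0.12 (exact permutation p = 0.743, adjusted p = 0.743). No pair passed after adjustment.

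**Figure D3:**
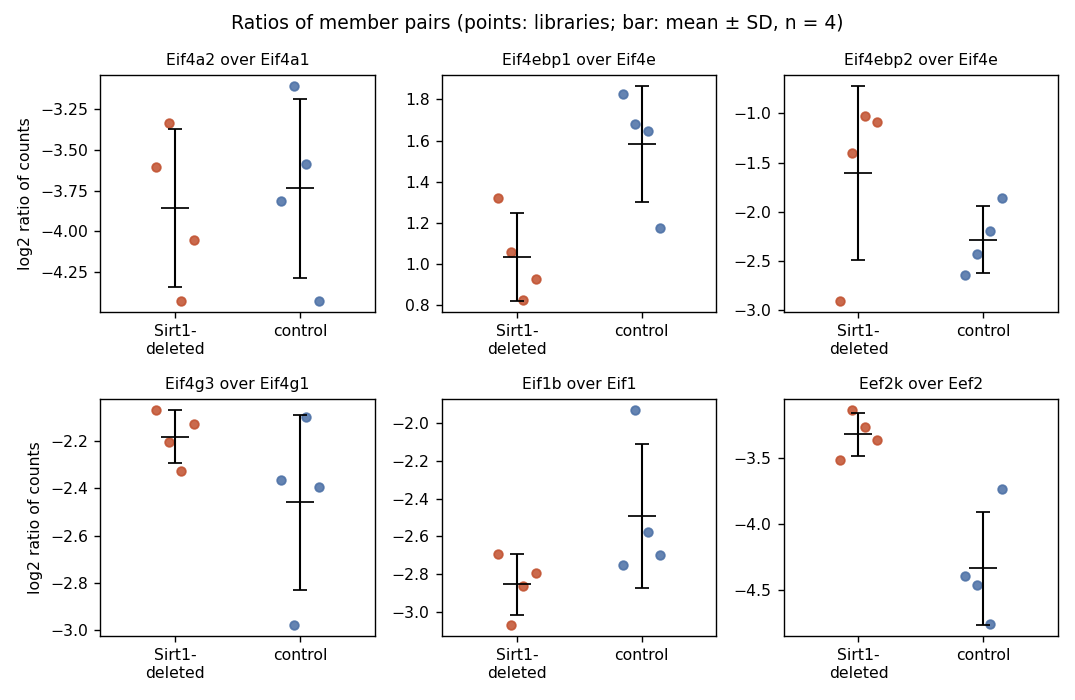
Log2 ratios of counts between 6 pairs of genes (y axis), with a point per library, Sirt1-deleted left of control, and bars for the mean ± SD (n = 4 each). For Eef2k over Eef2 the Sirt1-deleted libraries run from -3.51 to -3.13 and the controls from -4.75 to -3.73.

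Levels per kilobase of exon order the genes within the LSK cells. Eif5a, Eef1a1 and Eef2 were the top 3 in both groups, with Eif5a at 948 CPM per kilobase in Sirt1-deleted and 1368 in control libraries. Eef1a1 had 941 CPM per kilobase in Sirt1-deleted and 953 in control libraries, and Eef2 had 598 CPM per kilobase in Sirt1-deleted and 719 in control libraries. Eif5a and Eef1a1 do not differ beyond their spread in Sirt1-deleted libraries. Other genes share 60.6% of the 50-base words of the Eef1a1 transcript and 7.13% of those of Eif5a. The count of Eef1a1 may therefore be too low, and the order of these genes is uncertain. Together these 3 genes held 37.0 to 38.7% of all counts of the 63 genes in Sirt1-deleted and 37.4 to 40.1% in control libraries. Inside the eIF3 and eIF2 complexes the counts per length were far from even. In eIF3, Eif3g was highest, at 233 CPM per kilobase in Sirt1-deleted and 304 in control libraries, and Eif3j2 lowest, at 0.377 CPM per kilobase in Sirt1-deleted and 0.456 in control libraries. In eIF2, Eif2s1 had 25.5 CPM per kilobase in Sirt1-deleted and 30.8 in control libraries. Eif2s3x had 2.00 CPM per kilobase in Sirt1-deleted and 2.74 in control libraries. Eif2s3y had 5.79 CPM per kilobase in Sirt1-deleted and 6.36 in control libraries. Both encode the gamma subunit, so neither value is the whole level of that subunit. Other genes share 91.8% of the 50-base words of the Eif3j2 transcript and 36.2% of those of Eif2s3x. Their counts may also be too low, so the spread within these complexes is uncertain. The inhibitor Eif4ebp1 stood at 85.2 CPM per kilobase in Sirt1-deleted and 131 in control libraries, and its target Eif4e at 15.005 CPM per kilobase in Sirt1-deleted and 15.9 in control libraries. Merged exons overstate the length of genes with rare long transcript ends, which lowers such values.

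**Figure D4:**
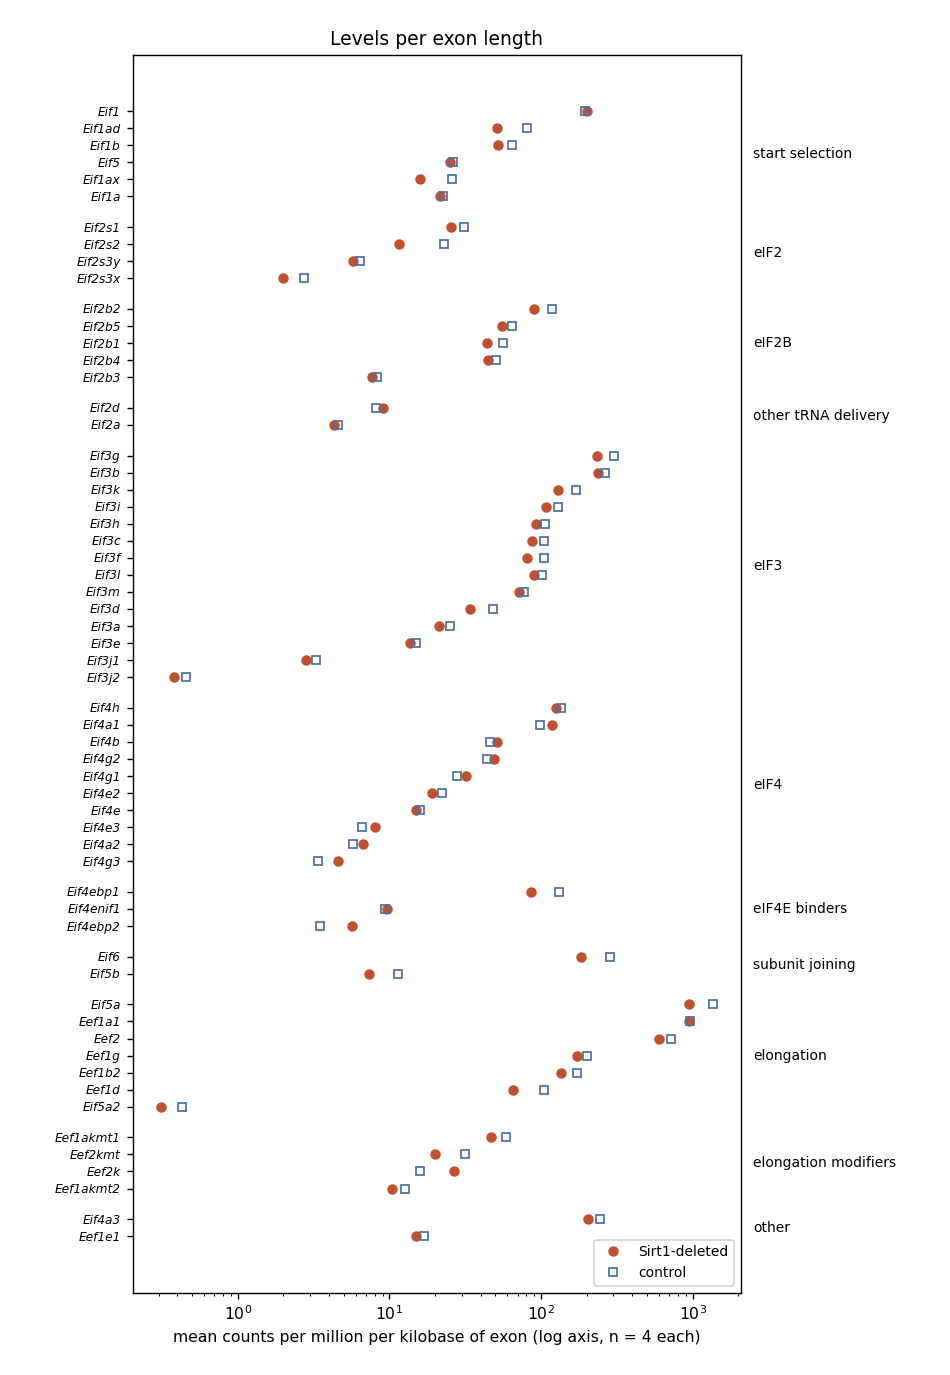
Mean CPM per kilobase of exon (log x axis) of the 59 tested genes, grouped by role, with Sirt1-deleted as filled circles and control as open squares (n = 4 each). Eif5a, Eef1a1 and Eef2 are the top 3, and Eif3j2 and Eif5a2 stand below 1.

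Several members have near-identical copies elsewhere in the genome, and reads with more than one alignment were not counted. Such reads were 30.9, 28.8, 24.3 and 24.1% of the records in Sirt1-deleted libraries 1 to 4, against 32.0, 32.3, 30.1 and 30.6% in controls 1 to 4. More than 50% of the 50-base words of the longest coding transcript were shared with another gene in 6 members, among them Eif3j2 (91.8%), Eif4a1 (65.3%, 8 pseudogenes), Eef1g (64.3%) and Eef1a1 (60.6%, 18 pseudogenes), whose counts are uncertain. Of these 6, the median over the 5 tested was -0.22 on the log2 scale, and over the other 54 tested members -0.23.

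Of the 59 genes, 46 kept their sign in all 16 alternatives, 40 of them negative and 6 positive. The medians of start selection, eIF2, eIF2B, eIF3, subunit joining and elongation stayed below 0 in all 16. Those of eIF4, the eIF4E binders, the other tRNA carriers and the enzymes that modify elongation factors changed sign in at least 1.

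**Figure D5:**
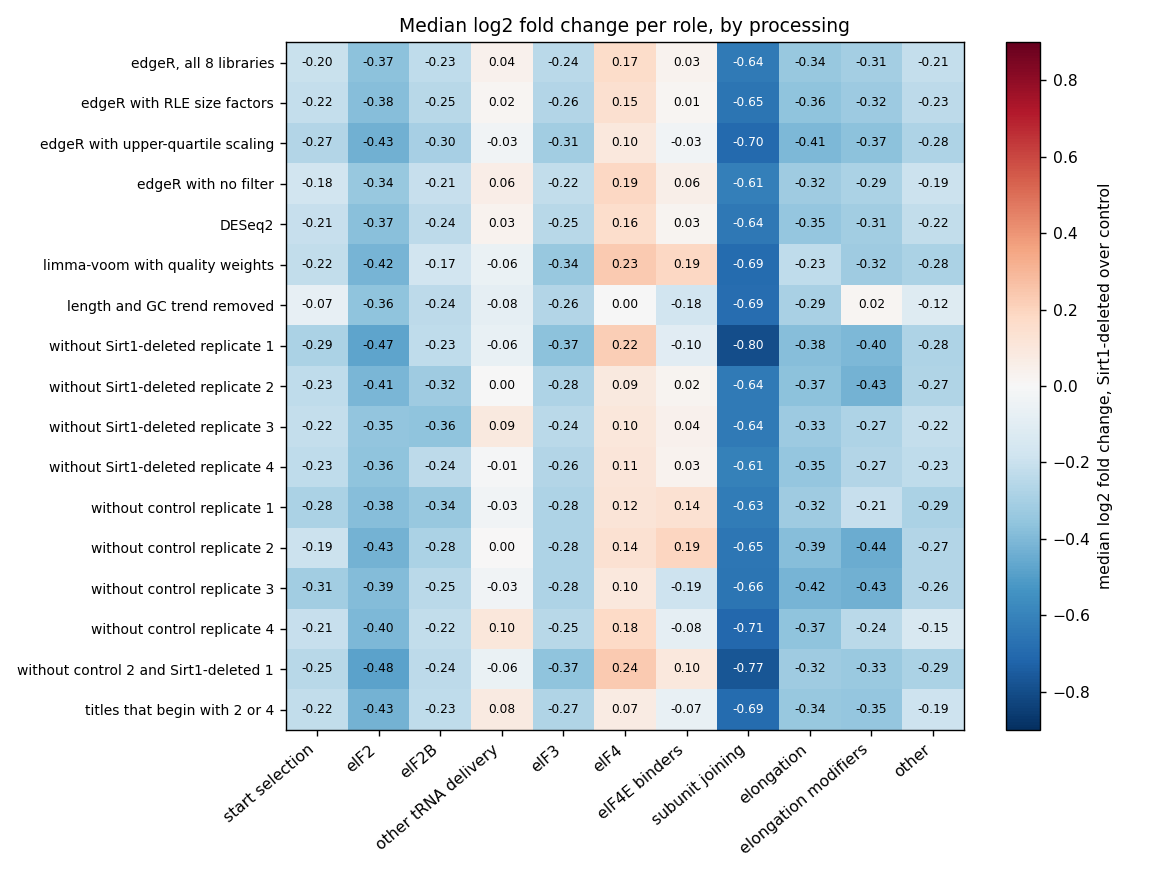
Median log2 fold change of the tested genes of each role (columns, colour and printed value, Sirt1-deleted over control) under edgeR with all 8 libraries and 16 alternatives (rows). The eIF3 column stays between -0.37 and -0.22, while the eIF4 column is near 0 once the trend over gene length and GC content is removed.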

How the data were processed

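The deposited table holds whole-number counts of reads per gene, which the authors did not normalise. Per the submitters' processing notes, reads were handled with STAR 2.5.3 and HTSeq 0.9.1 against GRCm38, and bcl2fastq 2.18.0.12, DESeq2 1.20.0 and Trim Galore 0.5.0 are also named. The sources used here do not give the annotation release, feature type or strand setting. The kit (SMARTer Ultra Low Input, Nextera XT) marks neither strand nor molecules, per the labels' protocols. The 5 rows that name no gene (33.2 to 40.6% of records) were left out. Of the identifiers, 48349 (99.1%) matched a symbol; coordinates are from GENCODE M21. Replicate numbers follow accession order and pair nothing. The column of control 4 differs from its title in the last letter. The first digit of the titles cannot be told apart from genotype.

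Genes were compared with edgeR 4.0.16 (TMM, filterByExpr, robust, Benjamini-Hochberg over 14178 genes, R 4.3.3), with limma 3.58.1 voom and DESeq2 1.42.0 as alternatives. The SE of a log2 fold change is its absolute value divided by the root of F. CPM of the members use TMM library sizes, CPM of cell type markers the unscaled gene totals, and pair ratios a prior count of 0.5. Ranges over alternatives cover the normalization, filter, test, libraries left out, and gene length and GC. On simulated data with 200 changed genes, edgeR found 6% of the 2-fold and 63% of the 4-fold changes (5 of its 74 calls were false), DESeq2 34% and 83% (73 of 190 false) and voom 5% and 57% (0 of 62 false). The members and lists were chosen with earlier results of these data known. Values in every library are given for 17 genes fixed by role, for the 6 of smallest p per direction whose groups do not overlap, and for others named after their values were seen. Some cell type markers are not reported here.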

Additional observations from a re-analysis of the deposited data

Results flagged for a closer look

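In 12 of 140 sets of 4 libraries (8.57%), 1 library stood apart from the other 3 of its group by a gap that chance gives in about 1 in 20 sets. Sirt1-deleted 1 was the library in 7 of them. It had 122 CPM of Eif2s2 (60.0 to 70.5 CPM in the other 3), 128 CPM of Eif3e (74.8 to 83.7), 626 CPM of Eif3g (383 to 421), 624 CPM of Eif6 (449 to 461) and 72.4 CPM of Eif4enif1 (56.4 to 58.4). It was low for Eif4a1, at 329.6 CPM (557 to 576), and for Eef2kmt, at 26.1 CPM (60.4 to 64.0). Control 3 had 176 CPM of Eif2b4 (113 to 120 in the other 3 controls), and control 4 had 499 CPM of Eif4g2 (422 to 434). Sirt1-deleted 2 held 0.956% of its gene counts in initiation genes (0.846 to 0.859% in its group) and 1.97% in all 63 members (1.71 to 1.74%). Control 1 held 1.82% in all 63 members (2.09 to 2.13% in the other controls).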

How the results depend on the processing

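No edgeR alternative that kept all 8 libraries called a member. DESeq2 called 11, limma-voom 15, edgeR without Sirt1-deleted 1 called 7, and edgeR without control 2 and Sirt1-deleted 1 called 4 (all lower, where 0.521% of all genes were called higher and 1.61% lower). Leaving out 1 library at a time gave 0 to 7. Eef1d, Eif2s2, Eif5a and Eif6 were called in 4 alternatives, and Eef2k in 3. Members higher at an unadjusted p under 0.05 numbered 1 with upper-quartile scaling, where 828 of 14178 genes tested were higher at that p. They numbered 1 with the length and GC trend removed (812 of 14178) and 1 with only titles that begin with 2 or 4 (867 of 14047). Without control 2 and Sirt1-deleted 1 they numbered 4 (1404 of 14574). With 1 library left out they numbered 1 to 3 (623 of 14573 to 1427 of 14713 genes), beside 2 in the report (1071 of 14178). Those lower numbered 12 to 25 over all alternatives, from 12 with only titles that begin with 2 or 4 (where 912 of 14047 genes tested were lower at that p) to 25 with limma-voom (1886 of 14178), beside 17 in the report (1219 of 14178). With the length and GC trend removed, the median was -0.072 for start selection, -0.00012 for eIF4 and 0.019 for elongation modifiers. With limma-voom it was -0.23 for elongation, and without control 2 and Sirt1-deleted 1 it was -0.37 for eIF3. With 1 library left out, the median ran from -0.37 to -0.24 for eIF3 and from -0.28 to -0.17 for initiation, lowest without Sirt1-deleted 1 in both. The Eef2k over Eef2 difference ran from 0.877 to 1.22 with 1 library left out, where 3 libraries against 4 cannot reach an exact p of 0.05. The Eif4a2 over Eif4a1 difference ran from -0.351 to 0.090, and it was 0.072 without Sirt1-deleted 3 and 0.090 without control 2.

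Of the 59 members, 13 turned sign in some alternative. With upper-quartile scaling, Eif1 was -0.013 and Eif4enif1 -0.032. With no filter Eef1a1 was 0.0054, and with limma-voom Eif1 was -0.059 and Eef1a1 0.027. With the length and GC trend removed, Eif2d was -0.065, Eif3h 0.018, Eif3m 0.14, Eif4g1 -0.052, Eif4g2 -0.0013, Eif4enif1 -0.18, Eef1a1 0.048, Eef1akmt1 0.0019 and Eef1akmt2 0.035. Without control 2 and Sirt1-deleted 1, Eif1 was -0.058, Eif3m 0.011 and Eef1a1 0.044. With only titles that begin with 2 or 4, Eif2a was 0.078, Eif3m 0.0073, Eif4a2 -0.12, Eif4enif1 -0.069 and Eef1a1 0.024. With 1 library left out, Eif1 ran from -0.056 to 0.14 (negative without Sirt1-deleted 2 or control 2), Eif4a2 from -0.12 to 0.31 (negative without Sirt1-deleted 2) and Eif4enif1 from -0.19 to 0.19 (negative without Sirt1-deleted 1, control 3 or control 4). Likewise Eif2b3 ran from -0.24 to 0.011, Eif2a from -0.24 to 0.037 and Eif3m from -0.27 to 0.036 (each positive without control 4), and Eef1a1 from -0.13 to 0.12 (positive without Sirt1-deleted 1 or control 4). The cause of these changes was not tested. No paired analysis was possible because the replicate numbers follow accession order and the labels pair no samples. Removing the length and GC trend left Eef2k at 0.53 and Eif4g3 at 0.16. In simulated data edgeR recovered few 2-fold changes. The changed genes there were drawn from the whole set of tested genes above a low level, so recovery among the members was not measured. By edgeR with all 8 libraries, the members ran from -0.99 to 0.75 on the log2 scale, each less than 2-fold.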
